A study of Mus musculus with 16 samples.

Results

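The 10 genes described here are targets of the transcription factor HIF1 that act outside the glycolytic enzymes themselves: Pdk1, Slc2a1, Slc2a3, Bnip3, Egln1, Egln3, P4ha1, P4ha2, Ndrg1 and Ddit4. They were chosen by name, and each non-control probe of the array whose transcript identifier belongs to one of them was taken. This gave 15 probes of 10 genes, out of 56605 probes and 22911 matched genes. Testing required a spot well above background on every array of 1 group or more, a condition that 13 of the 15 probes and all 10 genes met, beside 27579 probes and 14094 genes over the whole array.

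Total RNA was measured on 16 one-colour Agilent arrays of primary mouse podocytes, the epithelial cells that cover the glomerular capillaries, in 4 groups of 4. Tsc2Δpodocyte mice were male Jcl:ICR animals with both Tsc2 alleles floxed and with a Cre transgene that is active in podocytes. Tsc2flox/flox mice carried the floxed alleles without Cre. Untreated mice of both genotypes were 4 weeks old, and the groups named + Rapamycin came from mice of 5 weeks after 1 week of rapamycin, an inhibitor of the kinase complex mTORC1 that TSC2 restrains. The cells were outgrowths of glomeruli isolated with beads and cultured on collagen. The untreated arrays lay on 1 slide and the treated arrays on another, so rapamycin, age and slide cannot be told apart. On each slide Tsc2Δpodocyte samples lay in row 1 and Tsc2flox/flox samples in row 2, so genotype and row cannot be told apart either. No label says that the 4 samples of a group were separate mice, so a p-value here reflects sample-to-sample spread that may be technical.

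HIF1 is a pair of proteins, an oxygen-regulated alpha subunit encoded by Hif1a and a constant partner encoded by Arnt. In the presence of oxygen, prolyl hydroxylases of the EGLN family mark the alpha subunit for VHL and the proteasome. When the alpha subunit accumulates, the pair binds short DNA elements whose core reads ACGTG or GCGTG. The pair then raises genes for glucose uptake, for holding pyruvate back from the citric acid cycle, for mitophagy, for collagen hydroxylation and for its own feedback. mTORC1 is known to raise the production of the HIF1 alpha subunit, and TSC2 is an upstream brake on mTORC1.

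Promoter sequences of 8 of the 10 genes were at hand (RefSeq, mouse build GRCm38.p6), and none for Slc2a3 and Ndrg1. Windows of 250 bases before the transcription start were searched on both strands for ACGTG and GCGTG. The first of these was present in 7 of the 8 genes, Pdk1 being the exception, and GCGTG in all of them but Egln3. Of all 32851 promoter windows of this length, 16.6% held ACGTG, 28.2% held GCGTG and 38.6% held either. The genes were chosen as HIF1 targets and Pdk1 has 2 windows, so these shares stand beside the genes as a description, without a test. The windows of 5 genes are shown, because Pdk1 and Bnip3 had the largest genotype differences, P4ha2 kept the smallest share of its difference with rapamycin, Slc2a1 is a widely studied HIF1 target, and Ddit4 holds the same letters without passing the test. They lie at chr2:71872974-71873223 on the plus strand (Pdk1, the first of its 2 windows), chr7:138909507-138909756 on the minus strand (Bnip3), chr11:54100674-54100923 on the plus strand (P4ha2), chr4:119108495-119108744 on the plus strand (Slc2a1) and chr10:59951771-59952020 on the minus strand (Ddit4). Each is printed 5′ to 3′ along its gene and ends at the last base before the start, and capitals mark the matches on either strand.
Pdk1: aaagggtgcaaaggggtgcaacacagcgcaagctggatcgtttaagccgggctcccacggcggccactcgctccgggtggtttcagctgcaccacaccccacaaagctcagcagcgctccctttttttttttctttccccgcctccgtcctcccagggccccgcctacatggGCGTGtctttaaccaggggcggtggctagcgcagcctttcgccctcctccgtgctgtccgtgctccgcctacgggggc
Bnip3: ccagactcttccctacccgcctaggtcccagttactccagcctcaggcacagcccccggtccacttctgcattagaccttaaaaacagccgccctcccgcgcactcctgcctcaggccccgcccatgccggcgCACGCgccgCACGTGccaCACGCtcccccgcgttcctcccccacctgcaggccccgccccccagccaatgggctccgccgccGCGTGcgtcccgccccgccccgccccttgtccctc
P4ha2: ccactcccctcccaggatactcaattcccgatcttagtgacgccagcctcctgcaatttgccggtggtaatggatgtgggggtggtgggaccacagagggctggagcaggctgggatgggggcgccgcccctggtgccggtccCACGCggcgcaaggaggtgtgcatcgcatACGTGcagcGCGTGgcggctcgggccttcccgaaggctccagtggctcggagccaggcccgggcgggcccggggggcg
Slc2a1: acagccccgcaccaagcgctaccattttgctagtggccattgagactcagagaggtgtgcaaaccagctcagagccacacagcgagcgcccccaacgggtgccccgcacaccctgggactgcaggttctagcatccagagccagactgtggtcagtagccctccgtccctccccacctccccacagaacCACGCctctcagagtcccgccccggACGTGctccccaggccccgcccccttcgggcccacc
Ddit4: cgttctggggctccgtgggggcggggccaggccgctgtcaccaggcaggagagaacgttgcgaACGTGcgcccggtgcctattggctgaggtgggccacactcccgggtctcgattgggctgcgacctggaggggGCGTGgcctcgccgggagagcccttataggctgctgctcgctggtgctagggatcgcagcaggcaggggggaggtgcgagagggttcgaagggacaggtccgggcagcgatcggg
In the Bnip3 window the 2 matches of ACGTG overlap as one palindrome, CACGTG, whose leftmost letter lies 108 bases before the start, and 6.02% of all windows held that hexamer. The leftmost letter of the ACGTG match lies 78 bases before the start in P4ha2, 36 in Slc2a1 and 187 in Ddit4. The Pdk1 window holds only GCGTG, 78 bases before the start, and its second window, 71874654 to 71874903 on the same chromosome and strand, holds neither. A match describes these letters only, and binding of HIF1 was not measured here.

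Signals are given as the log2 of the background-subtracted intensity minus the log2 of the 75th percentile of the same array, so that 0 is the level of that percentile. A difference between groups on this scale is a log2 fold change. A probe was called where limma gave an adjusted p under 0.05 and the fold was at least 1.5, and a gene was counted where any of its tested probes was called. Where a gene has several tested probes, the brightest stands for it. Levels of different probes cannot be set against each other.

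The labels were checked first. Tsc2 was lower in Tsc2Δpodocyte podocytes for both of its probes, by log2 differences of -1.35 and -1.43 without rapamycin (limma, adjusted p = 0.000970 and 0.00176) and of -0.99 and -1.27 with it (adjusted p = 0.0124 and 0.00794), and the position of these probes relative to the deleted exons was not established. Of 15 podocyte markers, 14 to 15 were well above background on all arrays of each group, and of 8 tubule markers 4 were so (Aqp2, Cdh16, Cubn and Lrp2), while Slc34a1, Umod and Slc12a3 were well above background on 0 arrays. In cultured outgrowths such as these, fewer cells of a type and less RNA per cell cannot be told apart. One array stood apart for the genes described here. Replicate 2 of the untreated Tsc2Δpodocyte group was above its group mean for 10 of 10 genes, by 0.66 on average, while the other 15 arrays lay between -0.27 and 0.14 of theirs. The counts of called genes among the 10 are therefore given with and without it. So is each log2 difference printed for them that it moved by over 1.5 times or whose call it ended. Adjusted p-values also changed without it and are not all repeated.

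**Figure D1:**
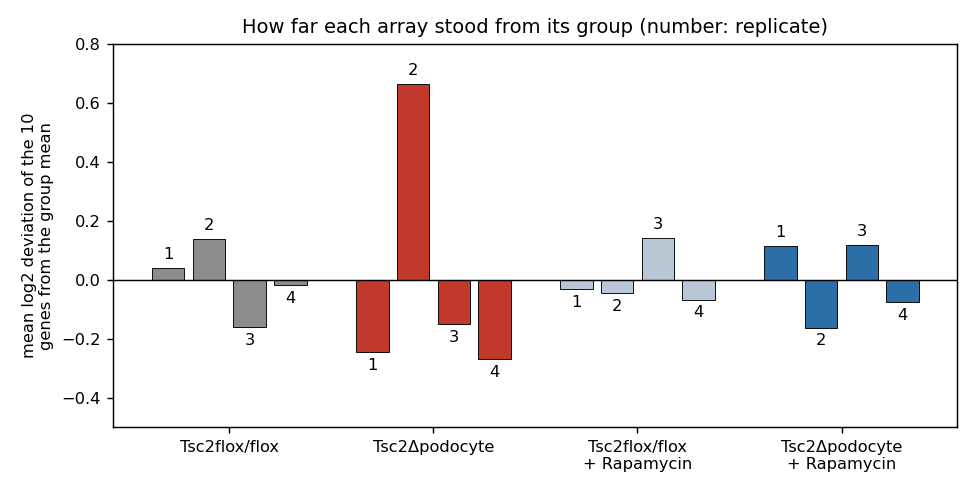
Mean log2 deviation of the 10 genes (brightest tested probe) from the mean of the group, 1 bar per array, with the replicate number at each bar. Replicate 2 of the untreated Tsc2Δpodocyte group stood 0.66 above its group, and the other 15 arrays lay between -0.27 and 0.14.

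Without rapamycin, 7 of the 10 genes were called higher in Tsc2Δpodocyte than in Tsc2flox/flox podocytes and 0 were called lower, against 6.94% and 4.39% of all 14094 genes tested. The 7 were Pdk1, Bnip3, P4ha2, Egln3, Slc2a3, Slc2a1 and P4ha1, with folds from 2.01 to 7.37. The median log2 difference of the 10 genes was 1.11, against -0.01 over all genes tested, and each of the 10 was above 0. In 8 of the 10, the 7 called genes and Egln1, all 4 Tsc2Δpodocyte values lay above all 4 Tsc2flox/flox values, against 13.5% of all genes, and 0 lay the other way, against 13.5% as well. Without replicate 2 of the untreated Tsc2Δpodocyte group, 7 genes were again called higher against 5.35% of all genes, with a median log2 difference of 1.00.

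With rapamycin, 4 of the 10 genes were called higher in Tsc2Δpodocyte podocytes, namely Bnip3, Pdk1, Egln3 and Slc2a1, and 0 lower, against 3.48% and 2.99% of all genes. The median log2 difference of the 10 was 0.53, against 0.01 over all genes, and 6 of them (the 4 called, Slc2a3 and Egln1) had groups that did not overlap, against 10.7% of all genes, and 0 did so in the other direction, against 7.49%. The count of 4 was sensitive to single arrays: it was 2 without replicate 1 or without replicate 4 of the Tsc2Δpodocyte + Rapamycin group, and 2 without replicate 4 of the Tsc2flox/flox + Rapamycin group, with Egln3 and Slc2a1 lost each time. Without replicate 2 of the untreated Tsc2Δpodocyte group it was 5, with the dimmer P4ha1 probe added.

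The fall-back itself was tested as the interaction, the genotype difference with rapamycin minus the one without it. It was below 0 for each of the 10 genes, from -1.03 (P4ha2) to -0.26 (Egln1), with a median of -0.49 against 0.01 over all genes. None passed the adjusted test in limma (adjusted p from 0.611 to 0.860), where 0 of 14094 genes, that is 0%, were called in either direction. In limma 3 of the 10 had an unadjusted p under 0.05, namely Slc2a3, P4ha2 and Pdk1, against 7.39% of all genes. Without replicate 2 of the untreated Tsc2Δpodocyte group their limma p was 0.00553, 0.0136 and 0.0691, in that order. The interactions in that fit were still below 0 for all 10 genes, from -0.75 to -0.08, with a median of -0.23. The values thus lay on 1 side for all 10 genes, and no single gene was called.

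**Figure D2:**
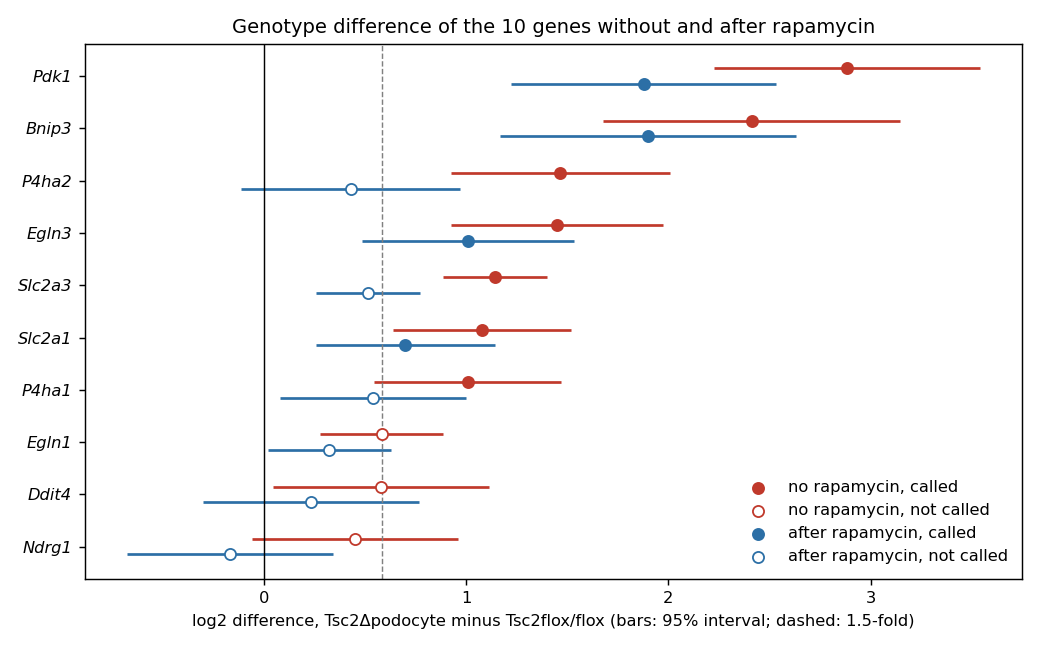
Log2 difference of Tsc2Δpodocyte minus Tsc2flox/flox for the brightest tested probe of each gene, without rapamycin (red) and with it (blue), with 95% intervals from limma, 4 arrays per group. Filled points were called and open points were not. Each of the 10 blue points lies to the left of its red point, and the widest gap, 1.03, is that of P4ha2.

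Further comparisons set treated against untreated arrays within a genotype, and these share their untreated arrays with the comparisons above. In Tsc2Δpodocyte podocytes, Pdk1 and P4ha1 were called lower with rapamycin and 0 genes higher, against 1.07% and 0.788% of all genes. In Tsc2flox/flox podocytes, 0 of the 10 genes were called in either direction, against 0.0922% higher and 0.0426% lower of all genes. In limma 3 of the 10 had an unadjusted p under 0.05 there, against 15.9% of all genes, and the unmoderated test of the study's methods called 0 as well after adjustment. With a fit of only the 8 arrays compared, or with that unmoderated test, 0 of the 10 genes were called lower in Tsc2Δpodocyte podocytes. Groups that did not overlap were lower with rapamycin in Tsc2Δpodocyte podocytes for Pdk1 and P4ha1 and higher for 0 genes, against 6.38% and 8.1% of all genes. In Tsc2flox/flox podocytes they were higher for Slc2a3, P4ha2 and Ndrg1 by their brightest probe and lower for 0 genes, against 5.53% and 5.22%.

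The first pair of genes acts on mitochondria. Pdk1 encodes pyruvate dehydrogenase kinase 1, which switches off the enzyme that admits pyruvate to the citric acid cycle. Its brightest probe (NM_172665) read 1.27, 2.63, 1.48 and 1.39 in untreated Tsc2Δpodocyte replicates 1 to 4 and -0.91, -0.92, -1.24 and -1.70 in untreated Tsc2flox/flox replicates. With rapamycin it read 0.71, -0.06, 0.93 and 0.40 in Tsc2Δpodocyte and -1.37, -1.58, -0.85 and -1.71 in Tsc2flox/flox samples. The genotypes did not overlap on either slide, and all 4 treated Tsc2Δpodocyte samples lay between the 2 untreated groups. The difference was 2.88 (SE 0.31, 7.37-fold, adjusted p = 9.18e-05) without rapamycin and 1.88 (SE 0.31, 3.67-fold, adjusted p = 0.00356) with it. Within Tsc2Δpodocyte podocytes the treated arrays were lower by a log2 difference of -1.19 (adjusted p = 0.0485), with all 4 treated values under all 4 untreated ones, and by -0.88 (adjusted p = 0.0932) without replicate 2 of the untreated group. That call was lost, with adjusted p up to 0.120, in 15 of the 16 fits that left out 1 array, and in those fits Pdk1 was called through its second probe. In Tsc2flox/flox podocytes the same difference was -0.19 (adjusted p = 0.798).

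The other Pdk1 probes did not all show this difference. A second tested probe gave 2.55 without and 1.76 with rapamycin (adjusted p = 6.96e-05 and 0.00163) and a log2 difference of -1.34 with rapamycin in Tsc2Δpodocyte podocytes (adjusted p = 0.0188). The next, with mean linear signals of 41.9 to 53.9 in the 4 groups, gave 0.33 and 0.13 and was not called (adjusted p = 0.111 and 0.599). The last probe was not tested, being well above background on 1 array only. With the mean of the 3 tested probes in place of the brightest, the differences were 1.92 and 1.26.

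Bnip3 encodes a receptor on the outer mitochondrial membrane that recruits the autophagy machinery. Its 1 probe (NM_009760) read 4.56, 6.28, 4.84 and 4.55 in untreated Tsc2Δpodocyte and 3.04, 2.72, 2.29 and 2.53 in untreated Tsc2flox/flox samples. With rapamycin the values were 4.46, 3.61, 4.73 and 4.11 against 2.24, 1.97, 2.57 and 2.54. The genotypes stayed apart on both slides, while treated and untreated Tsc2Δpodocyte samples overlapped. The genotype difference was 2.41 (SE 0.34, 5.32-fold, adjusted p = 0.000479) without rapamycin and 1.90 (SE 0.34, 3.73-fold, adjusted p = 0.00573) with it. Without replicate 2 the untreated difference was 2.01, close to the 1.90 with rapamycin. The interaction was -0.51 with all arrays and -0.11 without that one, and was not called in either fit (adjusted p = 0.845 and 0.978).

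The glucose transporters Slc2a1 (GLUT1) and Slc2a3 (GLUT3) bring glucose into the cell. For Slc2a1 (NM_011400) the untreated values were 4.54, 5.46, 4.90 and 4.75 in Tsc2Δpodocyte and 3.50, 4.22, 3.65 and 3.97 in Tsc2flox/flox samples. The treated values were 4.71, 4.91, 4.66 and 4.45 against 4.00, 4.37, 3.86 and 3.70. Slc2a1 was higher in every Tsc2Δpodocyte sample than in any Tsc2flox/flox sample of its slide, by 1.08 (SE 0.21, 2.11-fold, adjusted p = 0.00308) without and 0.70 (SE 0.21, 1.62-fold, adjusted p = 0.0445) with rapamycin. The second call lay close to the threshold and was lost in 11 of the 16 fits that left out 1 array, with adjusted p up to 0.120.

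Slc2a3 was measured by a dim probe (NM_011401) with mean linear signals between 49.9 and 97.9 in the 4 groups, and its second probe was never above background. The values were -2.07, -1.92, -2.12 and -2.07 in untreated Tsc2Δpodocyte and -3.18, -3.16, -3.33 and -3.09 in untreated Tsc2flox/flox samples, with SDs of 0.087 and 0.10. With rapamycin they were -2.31, -2.01, -1.97 and -2.22 against -2.72, -2.97, -2.41 and -2.48. The treated controls lay above all untreated controls. The treated minus untreated difference was 0.55 in Tsc2flox/flox (SE 0.12, adjusted p = 0.0728, not called) and -0.08 in Tsc2Δpodocyte podocytes (adjusted p = 0.722), or -0.04 without replicate 2 of the untreated group. The genotype difference went from 1.14 (SE 0.12, adjusted p = 9.18e-05) to 0.51 (SE 0.12, adjusted p = 0.0166), a fold of 1.43 that missed the fold threshold. With normexp background correction the differences of this dim probe were 0.63 and 0.34, and the first was still called. Of 7 tested other glucose transporters 0 were called in limma without rapamycin, where 6.94% of all genes were called higher and 4.39% lower. Their brightest probes with the smallest p were those of Slc2a6 (0.82, adjusted p = 0.0865), Slc2a8 (0.38, adjusted p = 0.189) and Slc2a4 (-0.41, adjusted p = 0.291).

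Egln1 (PHD2) and Egln3 (PHD3) encode oxygen-sensing prolyl hydroxylases that act on the HIF alpha subunits and are themselves HIF targets. Egln3 (NM_028133) read -0.34, 1.06, 0.47 and 0.03 in untreated Tsc2Δpodocyte and -0.96, -0.90, -1.52 and -1.19 in untreated Tsc2flox/flox samples. The treated values were -0.26, -0.91, -0.60 and -0.25 against -1.45, -1.50, -1.52 and -1.59. The genotypes were again apart on both slides, by 1.45 (SE 0.24, 2.73-fold, adjusted p = 0.00144) without and 1.01 (SE 0.24, 2.01-fold, adjusted p = 0.0196) with rapamycin. The call with rapamycin was lost in 4 of the 16 fits that left out 1 array, with adjusted p up to 0.0598. In Tsc2Δpodocyte podocytes the treated arrays differed by -0.81 (adjusted p = 0.0776), which was not called.

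Egln1 (NM_053207) ranged from 3.69 to 4.53 in untreated Tsc2Δpodocyte and from 3.34 to 3.55 in untreated Tsc2flox/flox samples. Its difference of 0.58 passed the adjusted test (SE 0.14, adjusted p = 0.0128), but its fold of 1.498 lay just under 1.5 and it was not called. Without replicate 2, the 4.53, the difference was 0.41 (adjusted p = 0.0154). With rapamycin the groups still did not overlap (3.49 to 3.74 against 3.21 to 3.44), with a difference of 0.32 (adjusted p = 0.164). In the limma fit without replicate 2 of the untreated group the adjusted p of that difference was 0.0332, and its fold of 1.25 was not called. When each array was left out, Egln1 was called in 5 of the 16 fits without rapamycin and in 0 with it. The remaining hydroxylase of the family, Egln2, which is not counted among the 10, differed by 0.07 without and 0.07 with rapamycin (adjusted p = 0.700 and 0.754).

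P4ha1 and P4ha2 encode the catalytic alpha subunits of collagen prolyl 4-hydroxylase, the enzyme that stabilises the collagen helix. The brighter P4ha1 probe (NM_011030) read 2.21, 2.88, 1.88 and 2.12 in untreated Tsc2Δpodocyte and 1.38, 1.14, 1.25 and 1.30 in untreated Tsc2flox/flox samples. The treated values were 1.59, 0.99, 1.84 and 1.30 against 0.84, 0.52, 1.19 and 1.01, so the genotypes overlapped with rapamycin and not without. The difference was 1.01 (SE 0.21, 2.01-fold, adjusted p = 0.00599) without rapamycin and 0.54 (SE 0.21, adjusted p = 0.122) with it. The dimmer probe gave 1.26 (adjusted p = 0.00195) and 0.71 (adjusted p = 0.0578).

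P4ha1 had lower mean values with rapamycin in both genotypes. In Tsc2Δpodocyte podocytes the treated minus untreated difference was -0.84 (adjusted p = 0.0471) for the brighter and -1.37 (adjusted p = 0.0108) for the dimmer probe, and both were called. In Tsc2flox/flox podocytes it was -0.38 (adjusted p = 0.403) and -0.82 (adjusted p = 0.117), neither called. Without replicate 2 of the untreated Tsc2Δpodocyte group the brighter probe gave -0.64 (adjusted p = 0.0975). Its call was lost in 13 of the 16 fits that left out 1 array, with adjusted p up to 0.117, and in those fits the gene was called through its dimmer probe.

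P4ha2 had the widest gap between its genotype differences. Its probe (NM_011031) read 2.44, 3.49, 2.21 and 2.43 in untreated Tsc2Δpodocyte and 1.37, 1.18, 1.38 and 0.77 in untreated Tsc2flox/flox samples, which did not overlap. With rapamycin it read 2.14, 1.73, 2.58 and 2.26 against 1.69, 1.48, 1.88 and 1.94, which did. The difference went from 1.47 (SE 0.25, 2.76-fold, adjusted p = 0.00165) to 0.43 (SE 0.25, adjusted p = 0.305). Treated minus untreated values were -0.46 in Tsc2Δpodocyte (adjusted p = 0.298) and 0.57 in Tsc2flox/flox podocytes (adjusted p = 0.287), and neither was called. Without replicate 2 of the untreated Tsc2Δpodocyte group the first of these was -0.18 (adjusted p = 0.648), the untreated genotype difference 1.18 and the interaction -0.75 (adjusted p = 0.726).

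Ndrg1, a stress-responsive gene induced by hypoxia, and Ddit4 (REDD1), which restrains mTORC1 through the TSC complex, did not pass the test in any of the 5 comparisons. Ndrg1 (NM_008681) ranged from 2.41 to 3.63 in untreated Tsc2Δpodocyte and from 2.13 to 2.82 in untreated Tsc2flox/flox samples, a difference of 0.45 (SE 0.24, adjusted p = 0.202), or of 0.24 (adjusted p = 0.517) without replicate 2 of the untreated Tsc2Δpodocyte group. With rapamycin its difference was -0.17 (adjusted p = 0.710), the only one of the 10 below 0, and it was 0.0022 with normexp background correction. The treated Tsc2flox/flox samples, 2.88 to 3.35, all lay above the untreated ones, by 0.57 (adjusted p = 0.265). Ddit4 (NM_029083) ranged from 4.81 to 5.58 against 4.25 to 4.97 without rapamycin and from 4.75 to 5.46 against 4.41 to 5.54 with it. Its differences were 0.58 (SE 0.25, 1.49-fold, adjusted p = 0.122) and 0.23 (adjusted p = 0.602), with 95% intervals of 0.04 to 1.11 and -0.30 to 0.77. Without replicate 2 of the untreated Tsc2Δpodocyte group the first was 0.43 (SE 0.26, adjusted p = 0.302).

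**Figure D3:**
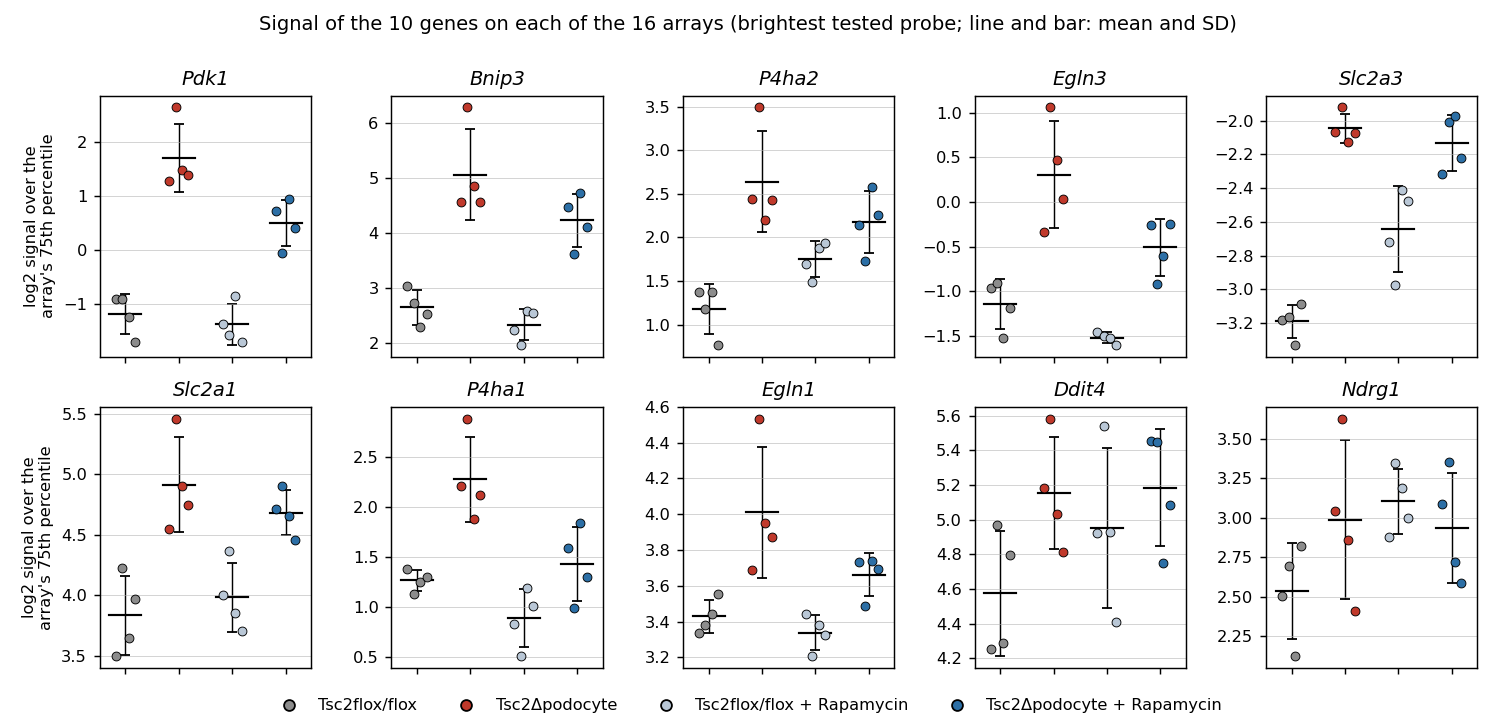
Normalized log2 signal of the brightest tested probe of each of the 10 genes on each of the 16 arrays, with replicates 1 to 4 from left to right in each group and with the group mean and SD (n = 4). The vertical scale differs between panels. In the upper row and for Slc2a1, P4ha1 and Egln1, all red points (untreated Tsc2Δpodocyte) lie above all grey points (untreated Tsc2flox/flox), and those of Ddit4 and Ndrg1 overlap.

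How much of the genotype difference was left with rapamycin was expressed as the ratio of the log2 differences with and without it. It was computed for the 7 genes called without rapamycin, so the difference that chose a gene is also the denominator of its ratio, and it is a description with no test. Bnip3 kept 78.7% (Fieller 95% interval 45.3 to 128), Egln3 69.7% (31.7 to 129), Pdk1 65.1% (40.5 to 96.8) and Slc2a1 64.8% (23.0 to 133). P4ha1 kept 53.7% (7.91 to 128), Slc2a3 45.0% (21.9 to 72.8) and P4ha2 29.4% (-7.73 to 75.8). The interval stayed below 100% for Pdk1, Slc2a3 and P4ha2, and it reached past 100% for the other 4. Neighbours in this order had intervals that overlap widely.

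Replicate 2 of the untreated Tsc2Δpodocyte group bears on these shares. Without it, Bnip3 kept 94.7% (64.9 to 139), Egln3 84.4% (46.3 to 149) and Slc2a1 78.0% (33.5 to 162). Pdk1 kept 73.1% (50.4 to 103), P4ha1 67.2% (19.1 to 162), Slc2a3 46.7% (22.4 to 77.5) and P4ha2 36.4% (3.66 to 79.6). Every share was larger without that array, and the intervals of Slc2a3 and P4ha2 still ended below 100% while that of Pdk1 did not. For Slc2a3 and P4ha2 the treated minus untreated difference was 0.55 and 0.57 in Tsc2flox/flox podocytes. In Tsc2Δpodocyte podocytes it was -0.08 and -0.46 with all arrays, and -0.04 and -0.18 without replicate 2. None of these was called.

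**Figure D4:**
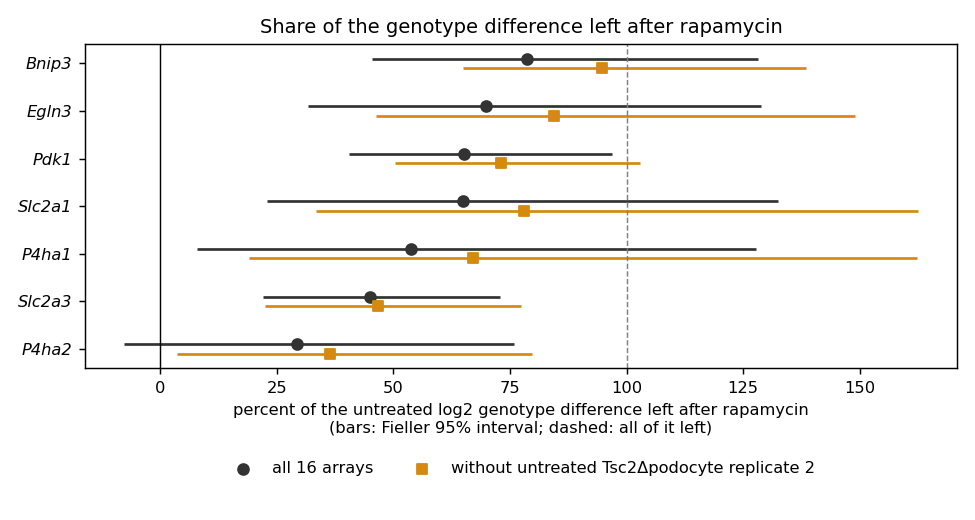
Percent of the untreated log2 genotype difference left with rapamycin for the 7 genes called without it, with Fieller 95% intervals, from all 16 arrays (circles) and without untreated Tsc2Δpodocyte replicate 2 (squares). Slc2a3 and P4ha2, at 45.0% and 29.4% with all arrays, are the genes whose interval ends below 100% in both fits.

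Among themselves the 10 genes mostly varied together over the 16 arrays. Pearson correlations of the 45 pairs ran from 0.10 to 0.98 with a median of 0.77, and Bnip3 with Pdk1 was the closest pair (0.98). These points share the group differences, so the correlations were also taken after each group mean was subtracted: they then ran from -0.30 to 0.86 with a median of 0.37, and 41 of 45 were above 0. Bnip3 with Pdk1 stood at 0.86, and replicate 2 of the untreated Tsc2Δpodocyte group, high for all 10 genes, is one of the 16 points behind each value. Closest patterns over the 16 arrays were then sought among the tested named genes outside the 10. Those most like Bnip3 were Eno2 (r = 0.985) and Ak4 (0.981), and those most like Pdk1 were Ak4 (0.980) and Pfkl (0.975). For the other called genes they were Gm13315 (0.964) and Prelid2 (0.956) for Egln3, Cope (0.977) and Whamm (0.970) for P4ha1, Pgrmc2 (0.946) and Rora (0.941) for P4ha2, Pou5f1 (0.945) and Aldoc (0.933) for Slc2a1, and Renbp (0.950) and Fam53b (0.935) for Slc2a3.

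The transcripts of the HIF machinery were described in the same way. Of 10 tested members of that list 0 were called by limma in any of the 5 comparisons, against 6.94% of all genes called higher without rapamycin, and their median difference without rapamycin was 0.14. Hif1a passed the adjusted test but not the fold threshold, at 0.58 (SE 0.12, adjusted p = 0.00601) without and 0.28 (adjusted p = 0.161) with rapamycin. Epas1, the alpha subunit of HIF2, differed by 0.19 (adjusted p = 0.765), Arnt by 0.22 (adjusted p = 0.355), Vhl by 0.10 (adjusted p = 0.322) and Hif1an, which hydroxylates the alpha subunits on asparagine, by 0.18 (adjusted p = 0.246) without rapamycin. The coactivator Crebbp (0.20, adjusted p = 0.116) and Cited2, which competes for the same coactivators (-0.25, adjusted p = 0.199), were not called either. HIF1 alpha protein was not measured on these arrays.

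A further list of HIF1 targets outside glycolysis gave 10 of 25 tested genes called higher and 0 lower without rapamycin, with a median of 0.48. Of all genes, 6.94% were called higher and 4.39% lower there. They include Fam162a, a mitochondrial protein (1.35, adjusted p = 0.000408), Insig2, a brake on sterol synthesis (0.72, adjusted p = 0.000919), and Ero1a, an oxidase of the endoplasmic reticulum (1.33, adjusted p = 0.00108). With rapamycin 3 were called higher and 1 lower, against 3.48% and 2.99% of all genes, at a median of 0.32. Fam162a stood at 0.62 and Ero1a at 0.78 (adjusted p = 0.0474 and 0.0356). Targets in glycolysis gave 14 of 18 called higher without and 9 of 18 with rapamycin, 0 lower in both, at medians of 0.74 and 0.41. Pkm (0.94), Eno2 (2.96) and Tpi1 (1.19) had the smallest p there.

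Lists around the single genes gave fewer calls, where 6.94% of all genes were called higher and 4.39% lower without rapamycin. Of 13 tested genes of the pyruvate dehydrogenase complex and its regulators other than Pdk1, 1 was called higher without rapamycin, the phosphatase Pdp2 (0.63, adjusted p = 0.00302), while the kinase Pdk3 (0.38) and the pyruvate carrier Mpc1 (0.30) passed the adjusted test under the fold threshold. Of 11 other collagen hydroxylases 2 were called higher, the lysyl hydroxylases Plod1 (0.97, adjusted p = 0.00131) and Plod2 (0.91, adjusted p = 0.00609), which also stand in the list of other HIF1 targets, and P4hb, the shared beta subunit of prolyl 4-hydroxylase, differed by 0.41 (adjusted p = 0.0258). Among other mitophagy genes, Fkbp8 (0.46, adjusted p = 0.0246) and the Bnip3 relative Bnip3l (0.45, adjusted p = 0.0355) passed the adjusted test under the fold threshold. The other NDRG genes, Ndrg2 (0.45), Ndrg3 (-0.11) and Ndrg4 (0.36), were not called. Among 8 other brakes on mTORC1, 0 were called higher and 1 lower, Tsc2 itself. Akt1s1 (0.30, adjusted p = 0.0486) passed the adjusted test under the fold threshold, and Sesn1 (0.54, adjusted p = 0.101) did not pass that test.

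Markers of other cell types moved in the same comparisons. Over all genes, 6.94% were called higher and 4.39% lower without rapamycin, and 3.48% and 2.99% with it. Of the 15 podocyte markers themselves, 1 was called higher and 1 lower without rapamycin, with differences from -1.07 to 1.80. With rapamycin 2 of them were called higher and 0 lower. Of 10 mesangial and smooth muscle markers, 4 were called higher in untreated Tsc2Δpodocyte podocytes, named here after their values were seen: Des, Itga8, Cnn1 and Myh11. The list's median difference was 0.85 without and 0.05 with rapamycin, and its summed linear level over the 75th percentile was 707 to 969 in untreated Tsc2Δpodocyte and 624 to 775 in untreated Tsc2flox/flox samples, 656 to 750 and 575 to 690 with rapamycin. Of 12 macrophage and leukocyte markers 2 were called higher without rapamycin (Cd68 and Cd14, named after their values were seen) and 0 with it. The list's differences without rapamycin ran from -0.52 (Itgam) to 1.17, with a median of 0.61. Its summed levels were 13.0 to 18.6 against 9.62 to 18.2 without and 13.2 to 18.6 against 12.9 to 19.6 with rapamycin. Parietal epithelial markers had 2 of 7 called lower both without and with rapamycin, and endothelial markers had 0 of 12 called by limma in each comparison. Of 4 tested tubule markers 1, Lrp2, was called lower both without and with rapamycin, by log2 differences of -1.57 and -1.84 (adjusted p = 0.00489 and 0.00516). The summed tubule level was 2.72 to 11.2 against 5.49 to 12.9 without and 3.91 to 19.9 against 5.46 to 25.0 with rapamycin. The summed levels of the endothelial markers were 10.4 to 73.9 and 8.13 to 95.7 in untreated Tsc2Δpodocyte and Tsc2flox/flox samples against 5.65 to 9.28 and 5.96 to 13.9 with rapamycin, and their part, and that of the other markers, in the results of the 10 genes was not tested.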

How the data were processed

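Agilent Feature Extraction 10.7.3.1 gave, per the file headers, a background-subtracted intensity for each spot of 16 one-colour arrays, on a linear scale, which the authors deposited as scanner output. A table the authors deposited for the series holds log2 values of the same arrays, by their values shifted to each array's 75th percentile and centred per probe. It correlated at r of at least 0.99975 with the values used here, its columns have medians from -0.16 to 0.24, and it served as an alternative. The raw median signal and local background of the same files served for another.

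Each log2 intensity was set relative to the 75th percentile of the non-control spots on its array. Outlier spots (1344) were left out, spots of a probe were averaged, no spot was saturated and 34 values were missing. The 75th percentile lay between 348.6 and 467.7 and 28696 to 32918 spots were well above background per array. Probes were named through RefSeq transcript identifiers (32994 of 56605). limma 3.58.1 in R 4.3.3 (with data.table, version 1.17.8) fitted 4 group means over 16 arrays with empirical Bayes moderation; the methods state no such model but give the fold and adjusted p thresholds used here, and the t-test tried is that of their general statistics. Benjamini-Hochberg adjustment ran over all 27579 probes tested in each comparison. Correlations between arrays were 0.978 to 0.992 within and 0.951 to 0.989 between groups. The fit was tested on simulated data. With 4 arrays against 4, the 2-sided exact permutation test cannot go below p = 0.0286, and single values were checked with it. Group sizes limit the precision.

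The named genes are the 10, Tsc2, the HIF subunits and regulators, and up to 3 genes of each list with the smallest p without rapamycin. For each called gene, the 2 closest patterns outside the 10 are named too. One result of the mitophagy list is not reported here. Members and lists were chosen with earlier results of these data known. Alternatives were quantile normalization, normexp (offset 50), other filters, the deposited table, the 8 arrays compared, the methods' t-test, a prior with trend and robust settings, a block for the replicate number, no fold threshold or a 2-fold one, averaged probes per gene, and each array left out.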

Additional observations from a re-analysis of the deposited data

Results flagged for a closer look

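In 3 of 52 sets of 4 arrays (13 tested probes in 4 groups) 1 sample stood far from the others, where chance flags about 1 in 20 sets. All 3 are replicate 2 of the untreated Tsc2Δpodocyte group as the highest sample: Bnip3 (6.28, the next 4.84; gap over the range 0.832), the brightest Pdk1 probe (2.63, the next 1.48; 0.848) and a second Pdk1 probe (0.63, the next -0.55; 0.919). The Pdk1 probe that was not tested was well above background on 1 Tsc2Δpodocyte array, the same replicate, and on 0 of the 8 control arrays.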

How the results depend on the processing

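Without rapamycin the count of 7 genes called higher stayed between 7 and 8 when each array was left out in turn. The count of 4 with rapamycin was 2 with no filter on dim probes and ranged from 2 to 5 when each array was left out. The 2 genes called lower with rapamycin in Tsc2Δpodocyte podocytes were 1 with no filter on dim probes, and 0 with only the 8 arrays compared and with the methods' t-test, and stayed at 2 when each array was left out. Counts of called genes in the other directions, in Tsc2flox/flox podocytes and for the interaction were 0 in every setting run. The replicate numbers did not pair the samples (correlation of deviations over 0.1 in 7 of 24 same-numbered pairs), and the replicate block left the counts at 7, 4 and 2. The slide as a random block could not be fitted, since each group lies on 1 slide.

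Directions turned only in small differences that were never called. With normexp, Ndrg1 with rapamycin became 0.0022, and treated against untreated arrays gave 0.14 for Ndrg1 in Tsc2Δpodocyte and -0.039 for Slc2a1 and 0.055 for Pdk1 in Tsc2flox/flox podocytes. When each array was left out, treated against untreated Tsc2Δpodocyte podocytes ranged from -0.24 to 0.16 for Ndrg1 and from -0.081 to 0.18 for Ddit4. The cause was not tested. Dim signal limits 2 of the tested Pdk1 probes, Slc2a3 and the dimmer P4ha1 probe, whose lowest group means of the linear signal were 38.8, 41.9, 49.9 and 50.8.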
